A study of Mus musculus with 16 samples.

Results

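The 10 genes described here are the Nr4a nuclear receptors Nr4a1, Nr4a2 and Nr4a3, the cAMP-responsive transcription factors Creb1 and Crem, their coactivators Crebbp, Crtc1, Crtc2 and Crtc3, and the kinase gene Sik1. They were taken by gene symbol from a table of 35682 genes. Each symbol matched 1 row. The set was chosen by its members' levels in B3AR-Tg against WT in these same animals, so that difference is given below for the 10 genes as levels, fold changes and standard errors, with no test. The study measured RNA in adult ventricular myocytes of 16 mice. Of these, 8 carried the B3AR-Tg transgene (B3AR is the beta-3 adrenoceptor) and 8 were wild-type littermates, labelled WT. Every animal had undergone TAC surgery (transverse aortic constriction, which narrows the aorta and loads the left ventricle), and myocytes were collected 9 weeks later. Hearts were digested by Langendorff perfusion, a retrograde perfusion through the aorta, and the cells stood on plates for an hour before RNA was extracted. The promoter that drives the transgene, the sex and age of the animals and an unoperated group are not given in the sources used here, so the data address genotype under pressure overload only.

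cAMP made after activation of a Gs-coupled receptor frees the catalytic subunits of protein kinase A, which phosphorylate CREB (encoded by Creb1) on DNA at the cAMP response element (CRE). Phosphorylated CREB recruits the histone acetyltransferase CBP (Crebbp), while the CRTC coactivators enter the nucleus once they lose phosphate that salt-inducible kinases such as SIK1 put on them. Nr4a1, Nr4a2 and Nr4a3 encode orphan nuclear receptors whose activity is set largely by how much of them is made. They are immediate early genes and known CREB targets, as are Sik1 and the short repressor isoform ICER that an internal promoter of Crem produces. In heart muscle, beta-adrenergic stimulation is a known inducer of Nr4a genes. The counts are per gene, so ICER cannot be separated from the longer Crem products.

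The upstream sequence of the 3 receptor genes is shown first, because the CRE is the element bound by the factors that Creb1 and Crem encode. RefSeq windows on GRCm38.p6 were found for 7 of the 10 genes: Nr4a1, Nr4a2, Nr4a3, Creb1, Crebbp, Crtc1 and Crtc3. Crem, Crtc2 and Sik1 had no entry. The 250 bases before the annotated start are printed 5′ to 3′ on the strand of the gene, with each CRE core motif (TGACG, or CGTCA where it lies on the other strand) in capitals. The windows are chr15:101266596-101266845 on the plus strand for Nr4a1, chr2:57124004-57124253 on the minus strand for Nr4a2 and chr4:48045055-48045304 on the plus strand for Nr4a3.
Nr4a1: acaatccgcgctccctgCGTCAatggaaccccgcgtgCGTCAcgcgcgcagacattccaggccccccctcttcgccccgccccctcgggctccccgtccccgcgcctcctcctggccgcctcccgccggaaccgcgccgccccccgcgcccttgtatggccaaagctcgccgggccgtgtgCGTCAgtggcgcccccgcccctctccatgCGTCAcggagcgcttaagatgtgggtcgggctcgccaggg
Nr4a2: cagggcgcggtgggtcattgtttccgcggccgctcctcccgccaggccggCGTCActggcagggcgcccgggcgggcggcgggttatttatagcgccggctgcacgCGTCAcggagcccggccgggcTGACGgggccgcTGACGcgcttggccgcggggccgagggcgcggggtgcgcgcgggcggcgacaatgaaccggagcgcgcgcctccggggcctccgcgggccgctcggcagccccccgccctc
Nr4a3: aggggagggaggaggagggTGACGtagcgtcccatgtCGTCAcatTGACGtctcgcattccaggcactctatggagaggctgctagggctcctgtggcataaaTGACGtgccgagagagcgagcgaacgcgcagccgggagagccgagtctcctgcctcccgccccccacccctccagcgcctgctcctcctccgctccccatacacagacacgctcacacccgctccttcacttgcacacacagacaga
Each of the 3 receptor windows held 4 core motifs, and the windows of Creb1, Crebbp, Crtc1 and Crtc3 held 0. In Nr4a1 the sites began 233, 213, 69 and 40 bases before the start, all on the other strand. In Nr4a2 they began 200, 144, 123 and 111 bases before the start, and in Nr4a3 231, 213, 205 and 147 bases. Of 32851 such windows in the RefSeq table, 17.8% held at least 1 core motif on either strand and 0.137% (45 windows) held 4 or more. None of the 7 windows held the full palindrome TGACGTCA, which occurs in 1.55% of all windows and contains the core motif on each strand. None held the Nr4a monomer site AAAGGTCA (either strand), which occurs in 1.34% of windows. The receptor windows were rich in G and C, at 74.4%, 80% and 63.6% for Nr4a1, Nr4a2 and Nr4a3, as were the windows with 0 core motifs (67.6% to 84%). These are matches of letters and not measured binding.

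**Figure D1:**
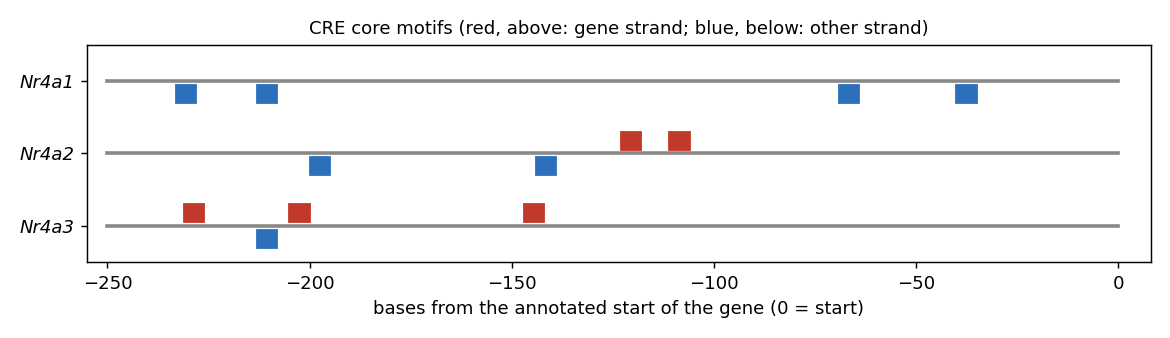
Position of CRE core motifs in the 250 bases before the annotated start of the 3 receptor genes. The x axis is the distance from the start in bases, with boxes above the line on the strand of the gene and boxes below it on the other strand; each gene has 4 sites, and those of Nr4a3 lie at least 147 bases from the start.

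Library totals ran from 5985335 to 14365864 counts, and no library was set aside. Mouse Adrb3 held 0 to 4 counts in every animal, so these counts do not show the transgene. Myocyte markers (Actn2, Myh6, Myl2, Pln, Ryr2, Tnni3, Tnnt2 and Ttn) summed to 57841 to 83158 CPM (counts scaled to the library total with TMM factors) across WT animals and to 63421 to 101133 CPM across B3AR-Tg animals. Of these 8 genes, 7 were higher by fold change and 2 had an unadjusted p under 0.05. Only Ryr2 passed the threshold (log2 fold change 0.46, edgeR adjusted p = 0.0359). Fibroblast markers summed to 45.9 to 189.8 CPM across WT animals and to 12.01 to 65.1 CPM across B3AR-Tg animals, with 7 of 7 tested lower by fold change and 5 of them past the threshold. Endothelial markers spanned 71.2 to 117.3 CPM across WT animals and 32.8 to 134.2 CPM across B3AR-Tg animals, with 6 of 6 lower by fold change and 2 past the threshold. Mural cell markers spanned 85.0 to 161.1 CPM and 47.3 to 141.3 CPM in the same order, and leukocyte markers 5.10 to 12.3 CPM and 2.03 to 6.89 CPM, with 0 of 5 and 0 of 3 tested past the threshold (2 and 1 at an unadjusted p under 0.05). No marker of any list was at 0 in all animals. Load markers (Nppa, Nppb, Myh7, Acta1 and Ankrd1) were lower in B3AR-Tg, 5 of 5 past the threshold. Over all 10945 genes tested with edgeR's quasi-likelihood test, 537 (4.91%) passed an adjusted p under 0.05, 222 higher (2.03%) and 315 lower (2.88%). Across the 10945 genes the log2 fold change had a median of 0.01, and 51.1% of genes had a fold change above 0.

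Nr4a1 and Nr4a3 had means 1.91 and 1.94 times those of WT in B3AR-Tg, and Nr4a2 was higher from a level near the limit of detection. Of the 10 genes, 9 passed the low-count filter and all 9 had a fold change above 0. Since the members were chosen with this contrast known, nothing is read from that count. In 0 of the 10 genes did all B3AR-Tg animals lie above all WT animals, which occurred in 0.201% of tested genes, and nothing is read from this count either. In whole preparations, fewer cells of a type and less RNA per cell cannot be told apart, and this holds for every level below.

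Nr4a1 (Nur77, ENSMUSG00000023034) was at 11.99 CPM in the lowest WT animal, 20.6 CPM at the WT median and 24.6 CPM in the highest. In B3AR-Tg the lowest, median and highest values were 20.4, 41.4 and 55.6 CPM. Of the B3AR-Tg animals, 6 lay above the highest WT animal, and replicates 1 (20.4 CPM) and 3 (24.2 CPM) lay within the WT range. The means were 20.1 ± 4.27 CPM among WT animals and 38.6 ± 13.4 CPM in B3AR-Tg (SD, n = 8 each), and the log2 fold change was 0.93 (standard error 0.19). Counts behind these values were 100 to 285 per WT library and 232 to 599 per B3AR-Tg library.

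Nr4a3 (NOR-1, ENSMUSG00000028341) was at 14.6, 19.0 and 31.0 CPM (lowest, median and highest) among WT animals and at 16.4, 43.5 and 60.6 CPM in B3AR-Tg. Again 6 of the 8 B3AR-Tg animals lay above the highest WT animal, but the pair inside the WT range was replicates 2 (21.6 CPM) and 3 (16.4 CPM). Replicate 1, which had the lowest Nr4a1 of its genotype, had the highest Nr4a3. The means were 20.8 ± 5.60 CPM among WT animals and 40.3 ± 14.9 CPM in B3AR-Tg (SD, n = 8 each), a log2 fold change of 0.95 (standard error 0.22).

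Nr4a2 (Nurr1, ENSMUSG00000026826) held 1 to 11 counts per WT library, with 3 WT animals at or under the floor of 3 counts, and 6 to 69 counts per B3AR-Tg library. It did not pass the low-count filter. Its levels were 0.147, 0.518 and 0.935 CPM (lowest, median and highest) among WT animals and 0.626, 1.16 and 6.75 CPM in B3AR-Tg, with 5 B3AR-Tg animals above the highest WT animal and 8 of 8 above the WT median. The high values belonged to replicates 6 (6.75 CPM), 8 (3.13 CPM) and 5 (2.48 CPM). The mean in B3AR-Tg was 4.02 times that in WT, while the median was 2.23 times, and without replicates 6 and 8 the B3AR-Tg mean was 1.14 CPM. In a fit without the filter the log2 fold change was 1.96 (standard error 0.48), and without B3AR-Tg replicate 6 it was 1.42.

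Per kilobase of exon (GENCODE M21 lengths), Nr4a1 was the most abundant of the 3 receptors. It stood at 7.52 ± 1.59 CPM per kb in WT and 14.4 ± 4.99 in B3AR-Tg, Nr4a3 at 3.63 ± 0.979 and 7.04 ± 2.605, and Nr4a2 at 0.139 ± 0.0622 and 0.559 ± 0.559 (SD, n = 8 each). In CPM the means of Nr4a1 and Nr4a3 were close, at 20.1 and 20.8 in WT and 38.6 and 40.3 in B3AR-Tg. The order of these genes per kilobase thus rests on their lengths, 2.68 and 5.72 kb. Those lengths join all annotated exons, and the transcripts in use were not measured. The ratio of Nr4a3 to Nr4a1 per length ran from 0.316 to 0.731 among WT animals, with a median of 0.473. In B3AR-Tg it had a median of 0.438 and ran from 0.317 to 1.39, the high value being that of replicate 1.

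**Figure D2:**
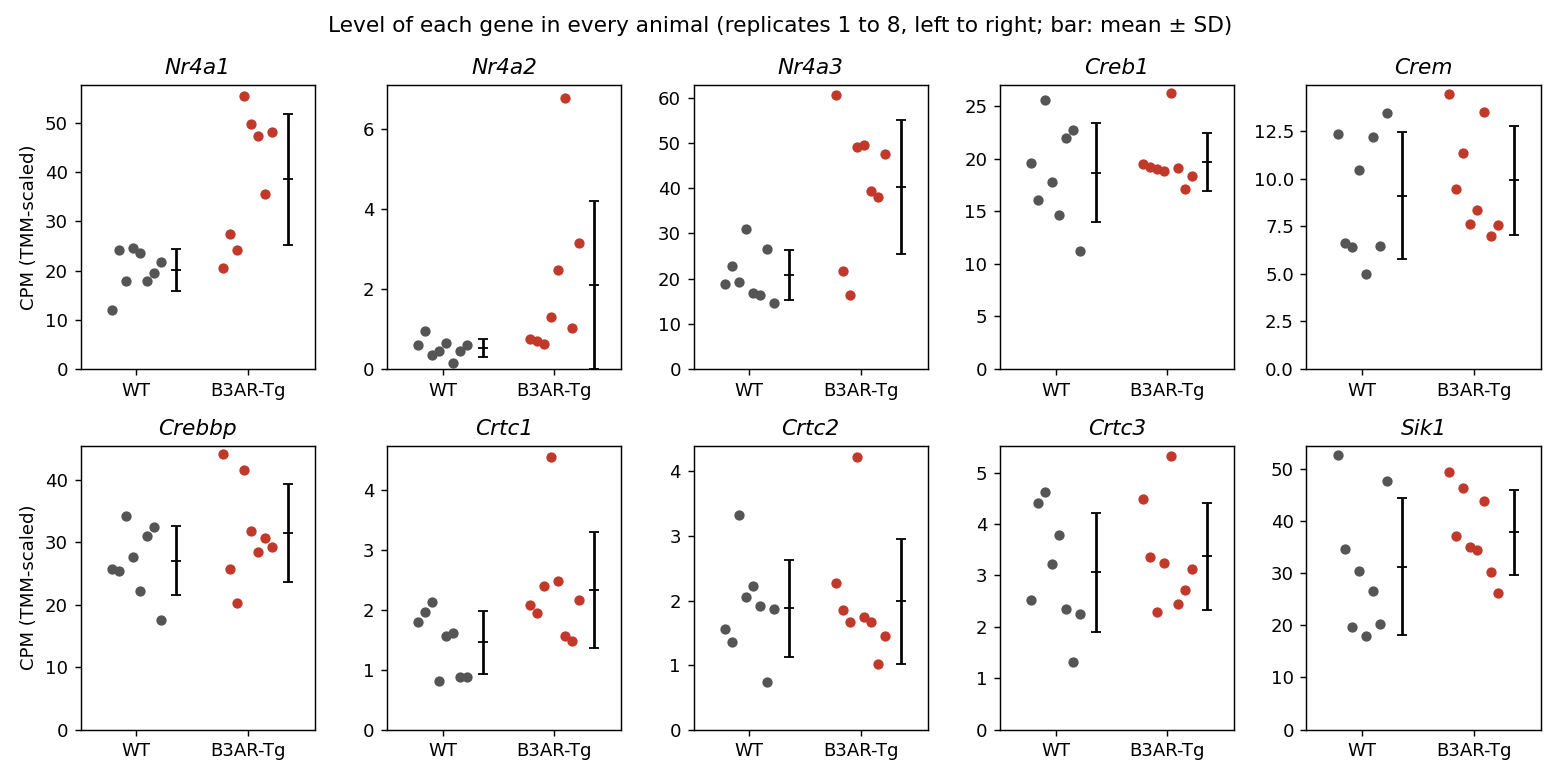
Level of each of the 10 genes in every animal, in CPM scaled with TMM factors (y axis, from 0, a scale of its own per gene), with 8 animals per genotype as points and the mean ± SD as a bar. Nr4a1 and Nr4a3 each have 6 B3AR-Tg animals above all WT animals, while the genotypes overlap widely for Creb1, Crem, Crebbp, Crtc2, Crtc3 and Sik1.

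For the factors that bind the CRE the genotypes overlapped widely. Creb1, the constitutive cAMP-responsive activator, was at 11.2, 18.7 and 25.6 CPM (lowest, median and highest) among WT animals and at 17.1, 19.0 and 26.3 CPM in B3AR-Tg. The groups overlapped, 1 B3AR-Tg animal (replicate 5) lying above the highest WT animal, and the log2 fold change was 0.08 (standard error 0.14). Crem was at 4.97, 8.54 and 13.5 CPM among WT animals and at 7.01, 8.90 and 14.5 CPM in B3AR-Tg. Its log2 fold change was 0.12 (standard error 0.21), and 4 of 8 B3AR-Tg animals were above the WT median.

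Among the coactivators the fold change was highest for Crtc1, on low counts. Crebbp, the acetyltransferase recruited by phosphorylated CREB, was at 17.6, 26.7 and 34.3 CPM among WT animals and 20.4, 29.9 and 44.2 CPM in B3AR-Tg (lowest, median and highest), a log2 fold change of 0.22 (standard error 0.15). The highest values were those of B3AR-Tg replicates 1 (44.2 CPM) and 4 (41.6 CPM). Crtc1 was at 0.804, 1.59 and 2.14 CPM among WT animals and 1.48, 2.12 and 4.55 CPM in B3AR-Tg, with 4 B3AR-Tg animals above the highest WT animal. Its log2 fold change was 0.65 (standard error 0.27) on 6 to 31 counts per library. B3AR-Tg replicate 4, the library with the fewest counts, was highest for both Crtc1 (4.55 CPM) and Crtc2 (4.22 CPM). Crtc2 had a log2 fold change of 0.04 (standard error 0.29) and Crtc3 one of 0.13 (standard error 0.24), with 2 and 5 of 8 B3AR-Tg animals above the WT median.

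Sik1, the kinase that keeps CRTC proteins out of the nucleus and a CREB target itself, was at 17.9, 28.5 and 52.6 CPM (lowest, median and highest) among WT animals and at 26.2, 36.01 and 49.4 CPM in B3AR-Tg. No B3AR-Tg animal lay above the highest WT animal, 7 of 8 lay above the WT median, and the log2 fold change was 0.27 (standard error 0.20). The spread was wider in WT, where the SD was 41.9% of the mean, than in B3AR-Tg, where it was 21.4%. WT replicates 1 (52.6 CPM) and 8 (47.7 CPM) were high, and both were also among the highest WT animals for Crem, at 12.4 and 13.5 CPM.

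By level per length in WT, the order of the 10 genes was Nr4a1 (7.52 CPM per kb), Sik1 (6.90), Nr4a3 (3.63), Crebbp (2.50), Creb1 (2.13), Crem (1.83), Crtc2 (0.684), Crtc3 (0.599), Crtc1 (0.256) and Nr4a2 (0.139). The SD over WT animals was 1.59 CPM per kb for Nr4a1 and 2.89 for Sik1. It was 0.513 for Crebbp, 0.537 for Creb1 and 0.674 for Crem, and 0.272 for Crtc2 and 0.226 for Crtc3. Neighbouring means within these groups lay closer than the SDs. The genes share the same animals and differences within animals were not tested, so the order within these groups is not read as a result. In B3AR-Tg the lead of Nr4a1 (14.4 CPM per kb) over Sik1 (8.35 ± 1.79) was wider. The mean of Nr4a2 there (0.559 ± 0.559) was above that of Crtc1 (0.410 ± 0.170), with overlapping SDs. That Nr4a2 mean includes the high replicates 6 (6.75 CPM) and 8 (3.13 CPM), and its order against Crtc1 is not read as a result. All 3 CRTC genes were among the lowest of the group in both genotypes. Within genotypes, the SD of log2 CPM was 0.45 for Nr4a1 and 0.53 for Nr4a3, at the 79.9th and 86.6th percentiles of all tested genes, and 0.30 for Creb1, at the 54.7th.

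How the inducible members varied together was examined among animals of the same genotype, which the genotype contrast does not use. Values of log2 CPM were centred on each genotype's mean, and 25 relations were computed: the 10 pairs of Nr4a1, Nr4a2, Nr4a3, Crem and Sik1, and each of these 5 against 3 marker scores. Crem and Sik1 rose and fell together, with Pearson r = 0.81 and Spearman rho = 0.81 over 16 animals (permutation p = 0.0008 and 0.00157, two-sided, Benjamini-Hochberg adjusted over the 25 relations p = 0.02 and 0.0393). The relation was r = 0.78 in WT and 0.91 in B3AR-Tg, and 0.75 without the 2 animals farthest from the median of Crem. It was the only 1 of the 25 to pass after adjustment. Scaling is shared by the genes of a library, and whether it takes part in this relation was not tested.

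No pair of the 3 receptors passed after adjustment. Nr4a1 and Nr4a2 had r = 0.62 and rho = 0.67 (permutation p = 0.0285 and 0.0173, adjusted p = 0.357 and 0.216), and r = 0.72 without the 2 animals farthest on Nr4a1. By genotype, r for this pair was 0.27 in WT, where Nr4a2 held 1 to 11 counts per library, and 0.73 in B3AR-Tg. Nr4a1 and Nr4a3 had r = 0.38 and rho = 0.45 (permutation p = 0.224 and 0.111, adjusted p = 0.622 and 0.511), and r = 0.80 without the 2 animals farthest on Nr4a1, B3AR-Tg replicate 1 and WT replicate 1. Nr4a1 had r = −0.45 with Crem and r = −0.41 with Sik1, neither past the threshold (permutation adjusted p = 0.395 for both). The difference between the Crem and Sik1 pair and the receptor pairs was not itself tested.

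**Figure D3:**
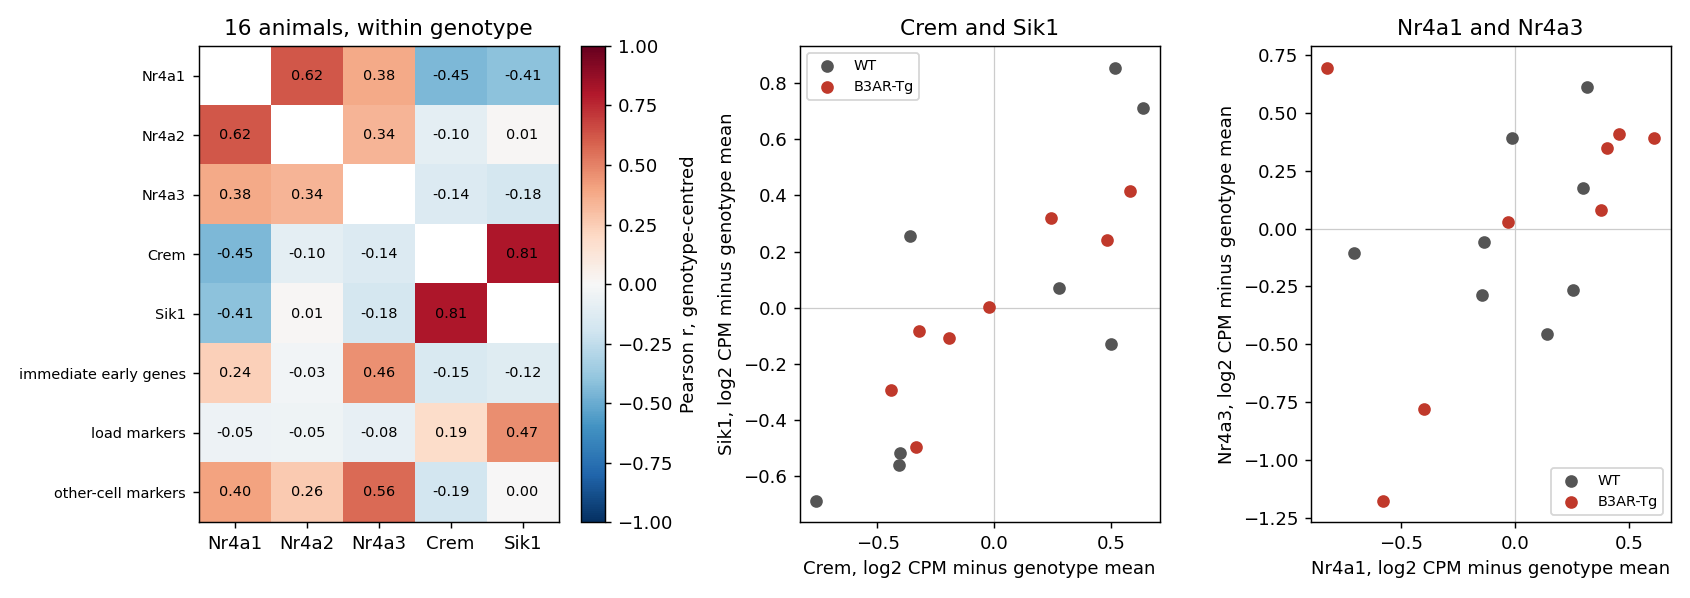
Left, Pearson r over 16 animals between genotype-centred log2 CPM of 5 of the genes, and of these with the mean level of 3 marker lists. Middle and right, each point is 1 animal, with centred log2 CPM on both axes; Crem and Sik1 lie along a line (r = 0.81), while B3AR-Tg replicate 1 stands at the upper left for Nr4a1 and Nr4a3 (r = 0.38).

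Other immediate early genes, a class that also responds to the handling of tissue, were set beside the receptors. Relations with the receptors among animals are given below, but whether handling took part in the receptor levels was not tested. Of 16 tested genes of the list (Atf3, Btg2, Ccn1, Dusp1, Egr1, Egr2, Egr3, Fos, Fosb, Ier2, Ier3, Jun, Junb, Klf2, Klf4, Myc and Zfp36, 17 in all), 13 had a fold change above 0 and 0 passed edgeR's threshold, with 3 at an unadjusted p under 0.05. DESeq2 called 1 and limma voom 0. Without B3AR-Tg replicate 7 edgeR called 2 higher, and without WT replicate 3 or B3AR-Tg replicate 8 it called 1 higher. The median log2 fold change was 0.28, against 0.01 over all tested genes. Of all 10945 tested genes, 51.1% had a fold change above 0, 4.91% passed edgeR's threshold and 2117 had an unadjusted p under 0.05. Atf3, Dusp1, Egr1, Fos, Fosb and Junb also stand in the list of cAMP and CREB targets below, so these lists overlap. Fos was at 80.2 ± 12.8 CPM among WT animals and 120.9 ± 46.6 CPM in B3AR-Tg animals (n = 8 each, log2 fold change 0.59, edgeR adjusted p = 0.0725), and Dusp1 at 25.7 ± 5.85 and 23.6 ± 6.58 CPM (−0.14, adjusted p = 0.658). The summed level spanned 523 to 809 CPM across WT animals and 521 to 1263 CPM across B3AR-Tg animals. Within genotypes the mean level of these genes had r = 0.24 with Nr4a1 and 0.46 with Nr4a3 (permutation adjusted p = 0.828 and 0.513). With that level as a covariate, the log2 fold change was 0.86 (standard error 0.20) for Nr4a1 and 0.81 (0.21) for Nr4a3.

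Markers of other cells did not pass with any receptor within genotypes. Their mean level (fibroblast, endothelial, mural and leukocyte markers pooled) had r = 0.40 with Nr4a1 and 0.56 with Nr4a3 (permutation adjusted p = 0.584 and 0.395). With that level as a covariate the log2 fold change was 1.28 (standard error 0.26) for Nr4a1 and 1.49 (0.27) for Nr4a3. Without it the values were 0.93 (0.19) and 0.95 (0.22). The level itself differed with genotype, at 1.92 to 2.73 (mean log2 CPM) across WT animals and 0.562 to 2.14 across B3AR-Tg animals. Such a fit cannot separate genotype well from other-cell content, so the larger fold changes are not read as a result. Load markers had r = −0.05, −0.05 and −0.08 with Nr4a1, Nr4a2 and Nr4a3 over both genotypes. These pooled values combine opposite signs, r = 0.46, 0.61 and 0.37 among the 8 WT animals and −0.46, −0.43 and −0.41 among the 8 B3AR-Tg animals. The difference between genotypes was not tested. With Sik1 the pooled r was 0.47 (permutation adjusted p = 0.418), from 0.60 in WT and 0.19 in B3AR-Tg.

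Levels were also set against the animal number in the sample titles, a choice made after the values had been seen. What the number stands for is not given in the sources used here. In B3AR-Tg the 5 animals with the lowest numbers had Nr4a1 between 35.6 and 55.6 CPM, and the 3 with the highest between 20.4 and 27.5 CPM. The 4 WT animals with the lowest numbers spanned 11.99 to 24.6 CPM and the other 4 spanned 17.8 to 23.5 CPM. Within genotype r with the number was −0.28 and rho −0.37 for Nr4a1 (permutation p = 0.284 and 0.152, adjusted over the 5 genes p = 0.474 and 0.253), from r = −0.84 in B3AR-Tg and 0.43 in WT. For Nr4a3 it was r = −0.56 and rho = −0.52 (permutation p = 0.0224 and 0.0393, adjusted p = 0.112 and 0.196), from −0.74 in B3AR-Tg and −0.37 in WT, and −0.33 without the 2 animals with the farthest numbers. The difference between genotypes in these relations was not tested. With the number as a covariate the log2 fold changes were 0.94 for Nr4a1 and 1.02 for Nr4a3.

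**Figure D4:**
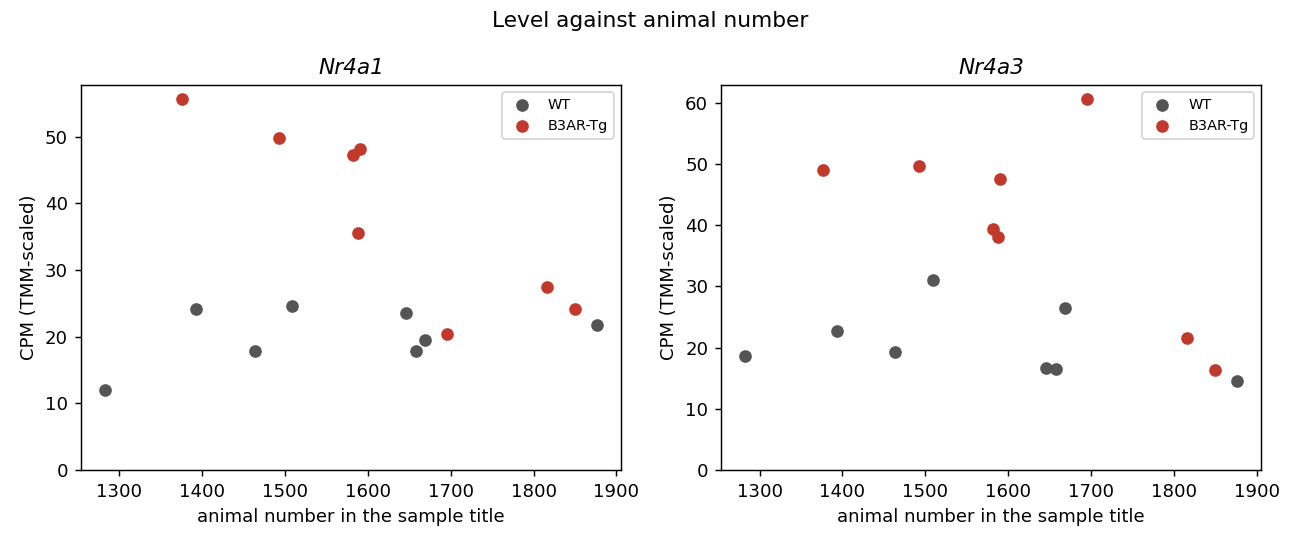
Level of Nr4a1 and Nr4a3 in CPM (y axis, from 0) against the animal number in the sample title (x axis), 1 point per animal. For Nr4a1 the 3 B3AR-Tg animals with the highest numbers lie between 20.4 and 27.5 CPM and the other 5 between 35.6 and 55.6 CPM.

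The genes whose genotype-centred log2 CPM was most like that of each inducible member were listed as a description, among 10927 or 10928 candidates with a mean of at least 1 CPM. Nr4a1 was most like Zfp518b (r = 0.86 over 16 animals), Arhgap29 (0.86) and Cdh11 (0.85). Nr4a2 was most like Mocs1 (0.83), Xrcc4 (0.78) and Rftn1 (0.77), on low counts of Nr4a2. Nr4a3 was most like Pbrm1 (0.93), Zfp318 (0.91) and Zfp36l2 (0.90), and 10.5% of all candidates had r over 0.5 with it, against 5.28% for Nr4a1. Crem was most like Wdr70 (0.88), Cdc37l1 (0.86) and Zfp622 (0.85), and Sik1 was most like Lcn2 (0.92), Gipc1 (0.87) and Sorbs3 (0.84). No gene stood in more than 1 of these short lists, and no member was in the list of another.

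Of the known targets of cAMP and CREB, 4 rose in B3AR-Tg: Pde4b, Rgs2, Bdnf and Ppargc1a. Of 20 listed genes 17 were tested, 13 had a fold change above 0, and the median log2 fold change was 0.41. At an edgeR adjusted p under 0.05, 4 rose and 0 fell. Over all tested genes 51.1% had a fold change above 0, 2.03% rose, 2.88% fell and the median was 0.01. The list was set with some of these results known. Pde4b, a phosphodiesterase that breaks down cAMP, was at 32.6, 45.5 and 74.1 CPM (lowest, median and highest) among WT animals and at 70.8, 89.9 and 139.9 CPM in B3AR-Tg, with 7 of 8 above the highest WT animal (log2 fold change 0.99, standard error 0.16, edgeR adjusted p = 0.00329). Rgs2, a regulator that speeds the shut-off of G proteins, was at 7.22, 12.3 and 18.1 CPM among WT animals and 16.4, 19.9 and 44.2 CPM in B3AR-Tg (0.92, adjusted p = 0.0211). Bdnf, a neurotrophin gene, was at 6.94 ± 1.91 CPM among WT animals and 11.1 ± 2.95 CPM in B3AR-Tg (n = 8 each, 0.68, edgeR adjusted p = 0.0328).

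Ppargc1a, the coactivator PGC-1alpha of mitochondrial biogenesis, was at 67.5, 87.1 and 110.2 CPM (lowest, median and highest) among WT animals and 89.8, 117.5 and 290.1 CPM in B3AR-Tg animals (log2 fold change 0.74, edgeR adjusted p = 0.0384). Bdnf and Ppargc1a kept an adjusted p under 0.05 in 8 and 6 of the 16 fits that left out 1 animal. The count of 4 fell to 2 without WT replicate 4 or 6 or B3AR-Tg replicate 1 or 5, was 7 without WT replicate 3, and was 1 with other-cell markers and 2 with immediate early genes as a covariate. Other targets did not pass, such as Per1, a clock gene (0.10, adjusted p = 0.840), and Pde4d (0.41, adjusted p = 0.0524). Of the 17 target genes with a RefSeq window, 14 had at least 1 CRE core motif in the 250 bases before a start, against 19.8% of all genes with a window. The genes were listed as known targets of CREB, which binds the CRE, so this share describes the list and not these animals.

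Of the other family members and regulators of CREB, 0 of 9 and 1 of 14 tested genes passed the threshold, where 4.91% of all tested genes passed. Nothing is read from counts this small. Of 11 further CREB/ATF factors 9 were tested and 0 passed edgeR's threshold (0 at an unadjusted p under 0.05, and 0 by DESeq2 and limma voom), with 1 lower without B3AR-Tg replicate 1 and with a median log2 fold change of 0.04. Creb5 had the lowest value, −0.56 (adjusted p = 0.341). Of 19 listed kinases, coactivators and other regulators, 18 were in the table and 14 were tested, with a median of 0.03. Of the 14, 5 had an unadjusted edgeR p under 0.05, as did 2117 of all 10945 tested genes. Rps6ka5, which encodes the CREB kinase MSK1, was the 1 that passed, at 8.20, 9.72 and 11.0 CPM (lowest, median and highest) among WT animals and 10.8, 15.8 and 21.8 CPM in B3AR-Tg, with 7 of 8 above the highest WT animal (log2 fold change 0.72, standard error 0.13, adjusted p = 0.00577). With other-cell markers as a covariate its log2 fold change was 0.62 (standard error 0.19) and it no longer passed (edgeR adjusted p = 0.172). Over all genes 15 passed with that covariate, against 537 without it. The list held 2 genes past the threshold, 1 higher and 1 lower, with DESeq2 and without WT replicate 3, 5, 6 or 7 or B3AR-Tg replicate 7. Prkar1a, the type I regulatory subunit of protein kinase A, was at 625 ± 254 CPM among WT animals and 408 ± 62.9 CPM in B3AR-Tg (n = 8 each, −0.61, edgeR adjusted p = 0.055). The related kinases Sik2 (0.28, adjusted p = 0.256) and Sik3 (−0.10, adjusted p = 0.702) and the CBP paralogue Ep300 (0.27, adjusted p = 0.404) did not pass.

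Among partners and reported targets of Nr4a receptors, the retinoid X receptor Rxra, with which Nr4a1 and Nr4a2 can form heterodimers, was at 20.8, 28.1 and 32.5 CPM (lowest, median and highest) among WT animals and at 32.5, 36.2 and 45.3 CPM in B3AR-Tg. It rose by 0.44 on the log2 scale (standard error 0.10, edgeR adjusted p = 0.0202), with 7 of 8 B3AR-Tg animals above the highest WT animal. With other-cell markers as a covariate the log2 fold change of Rxra was 0.34 (standard error 0.15), and Rxra no longer passed (edgeR adjusted p = 0.356). Rxrb (0.32, adjusted p = 0.139) and Rxrg (0.08, adjusted p = 0.743) did not pass. Of 14 metabolic genes linked to Nr4a receptors in skeletal muscle, all 14 were tested, 10 had a fold change above 0, 3 rose and 0 fell, and the median log2 fold change was 0.20. Over all tested genes 51.1% had a fold change above 0, 2.03% rose and the median was 0.01. The 3 were the phosphorylase kinase subunit Phkg1 (1.51), the uncoupling protein Ucp2 (1.68) and the phosphofructokinase Pfkm (0.29, adjusted p = 0.0439). Phkg1 and Ucp2 were known to differ when the list was set, and Pfkm kept an adjusted p under 0.05 in 6 of the 16 fits that left out 1 animal. The glucose transporter Slc2a4 was at 260 ± 39.3 CPM among WT animals and 327 ± 45.1 CPM in B3AR-Tg (n = 8 each, 0.33, edgeR adjusted p = 0.0725). Cav3, the muscle caveolin, had a log2 fold change of −0.17 (adjusted p = 0.238).

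**Figure D5:**
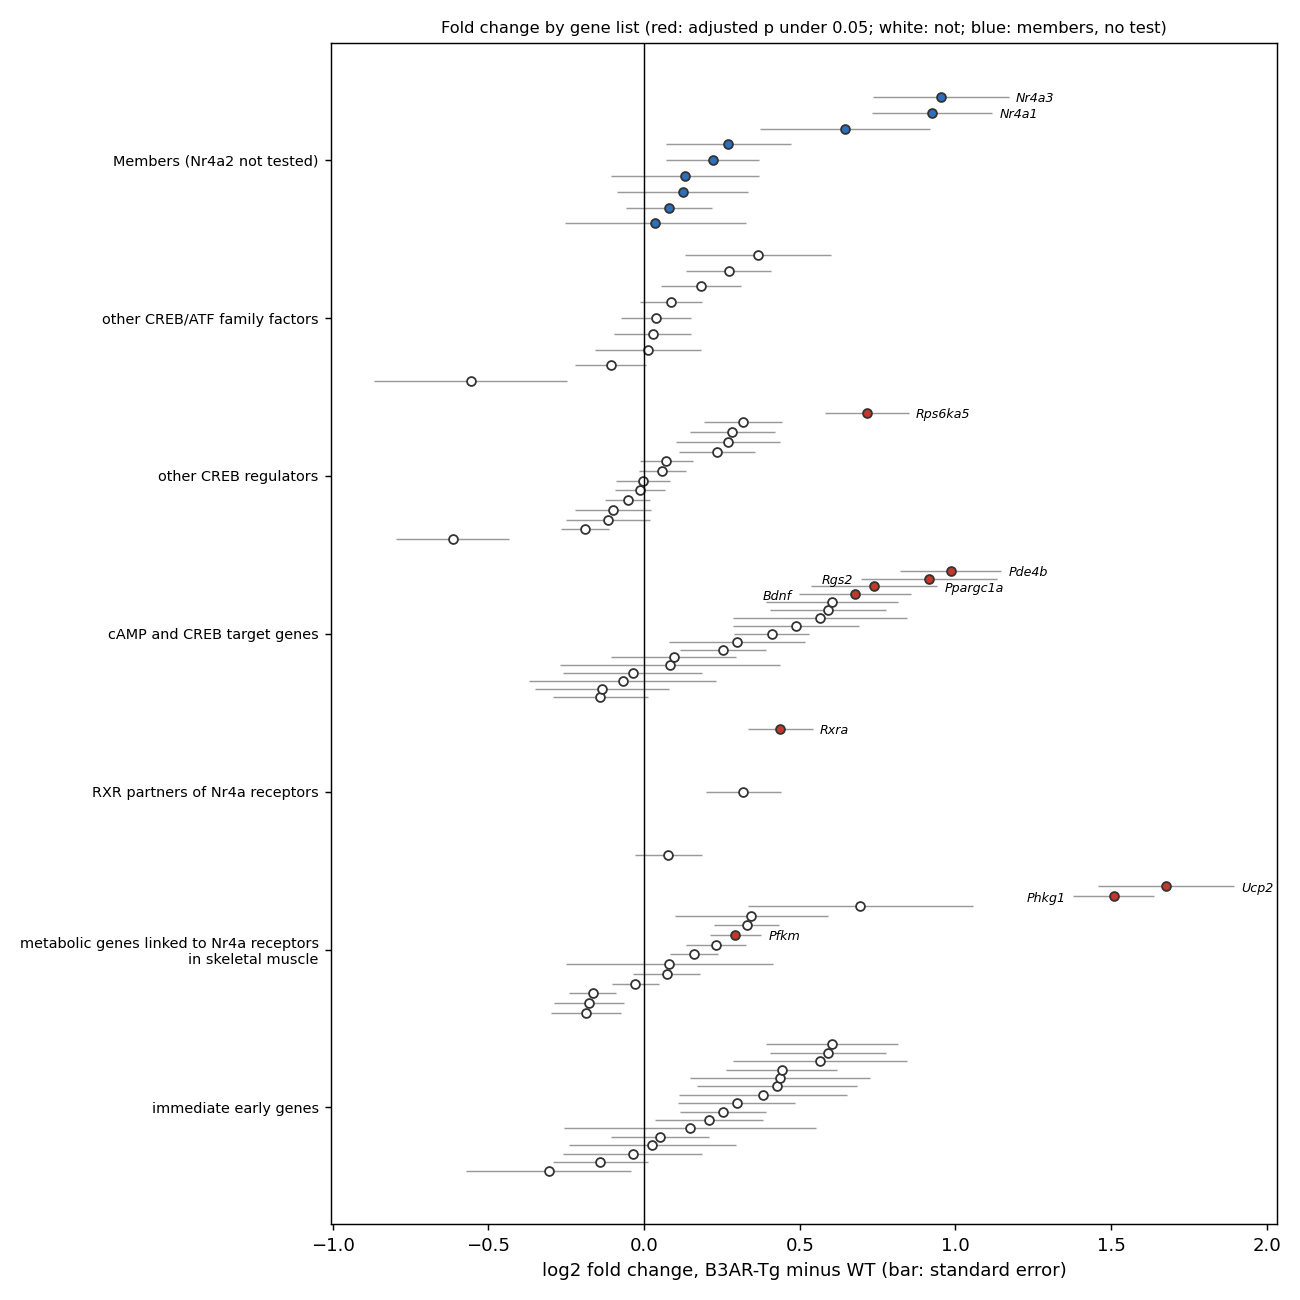
Log2 fold change (x axis, B3AR-Tg minus WT, bars are standard errors) of each tested gene, by list. Blue points are the 9 members that passed the filter, shown with no test; red points in the other lists passed an adjusted p under 0.05 (4 of 17 cAMP and CREB targets, 3 of 14 metabolic genes, 1 of 14 regulators and 1 of 3 RXR genes, named on the plot) and white points did not.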

How the data were processed

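Counts per gene were deposited by the authors as a table of whole numbers with 1 column per animal and no normalization, and every column matched 1 animal by the name in its label. The submitters' processing notes name Salmon and GRCm39 with no role or version. Salmon estimates need not be whole, so the counts may be rounded. How reads shared by similar or overlapping genes were assigned is not given in the sources used here.

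Genotypes were compared gene by gene in edgeR 4.0.16 (R 4.3.3) by its quasi-likelihood test (filterByExpr with a minimum count of 10 and a minimum total of 15, TMM scaling, genotype only), two-sided, with Benjamini-Hochberg adjustment over all 10945 tested genes and a threshold of 0.05. Standard errors were derived from the fold change and the F statistic. CPM is scaled by TMM factors, log2 CPM has a prior count of 2, and 3 counts were taken as the floor (0.201 to 0.487 CPM, counting error only). Relations among animals were tested by 100000 permutations of animals within genotype. The smallest chi-square per gene over 56 pairs of libraries within a genotype was 6.03, so no pair agreed within sampling noise. The labels call the animals biological replicates and name no batch.

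Alternatives were RLE scaling, no low-count filter, DESeq2 1.42.0, limma 3.58.1 with voom, a replicate block, removal of mitochondrially encoded genes with Gm20594, covariates, and leaving out each animal. The covariates for animal number and immediate early genes were added after the data had been seen. On simulated data for 10842 genes, the edgeR test recovered 78% of genes changed by 1 on the log2 scale and 35% of those changed by 0.5.

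The members and gene lists were chosen with earlier results of these data known. Named genes are all members, up to 4 genes per pathway list with the smallest p past the threshold, and the 3 genes most like each inducible member. Other list genes were named after their values were seen. Exon lengths come from GENCODE M21 and promoter windows from RefSeq, both on GRCm38.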

Additional observations from a re-analysis of the deposited data

Results flagged for a closer look

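In each group of 8 animals, the gap between the highest or lowest animal and its neighbour was compared with the group's whole range, for the members and the other genes named by rule. Of 68 groups searched, 4 had a gap above Dixon's 95% critical value, and chance alone would give about 3.4.

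Nr4a1 was low in WT replicate 1, at 11.99 CPM (100 counts) where the rest of WT lay between 17.8 and 24.6 CPM, a gap of 0.550 of the range. Creb1 was high in B3AR-Tg replicate 5, at 26.3 CPM against 17.1 to 19.5 CPM, a gap of 0.699. Crtc1 was high in B3AR-Tg replicate 4, at 4.55 CPM on 28 counts against 1.48 to 2.48 CPM, a gap of 0.551. Cdc37l1, among the genes most like Crem, was high in B3AR-Tg replicate 1, at 166.6 CPM against 123.3 to 141.7 CPM, a gap of 0.539.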

How the results depend on the processing

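Under 25 alternatives the log2 fold change ranged from 0.84 to 1.28 for Nr4a1 and from 0.81 to 1.49 for Nr4a3. The fold change changed sign in some alternatives for Creb1, Crem, Crtc2 and Crtc3. The count over all genes, 537, was 230 with the replicate block, 15 with the other-cell covariate and 332 with the immediate early gene covariate, and ran from 272 (without WT replicate 4) to 675 (without WT replicate 3) when 1 animal was left out. It was also 277 without B3AR-Tg replicate 5 and 345 without B3AR-Tg replicate 8. The 9 genes of the pathway lists past the threshold became 3 with the other-cell covariate and 6 to 13 when 1 animal was left out. Causes of these changes were not tested. Same-numbered animals did not vary together (correlations from −0.219 to 0.0935 over 8 pairs, with 0 WT animals closest to their own number), so the numbers do not pair them. Among the 25 relations, 1 passed under each of a prior count of 0.5 and RLE scaling. Depth limits Nr4a2 and the 3 CRTC genes, which had 1 to 69 counts per library.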
